A study of Mus musculus with 6 samples.

Results

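Liver RNA was measured for 10 messenger RNAs encoded by the mitochondrial genome of the house mouse. They were ND1, ND2, ND3, ND4, ND4L, ND5 and ND6, which encode the mitochondrial subunits of respiratory complex I, CYTB of complex III, COX2 of complex IV and ATP6 of ATP synthase. They were chosen by name from the 37 entries of the mitochondrial genome. The other entries were 22 transfer RNAs, all listed at 0 wherever an estimate was given, the ribosomal RNAs mt-Rnr1 and mt-Rnr2, and COX1, COX3 and ATP8. In all, 47256 gene names were listed once for every mouse.

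The laboratory group held 3 adult inbred C57BL/6 mice, all male, which came from a breeder and were killed on arrival. The wild group held 3 adult outbred mice, live-trapped at a pair of places in New South Wales and kept under standard husbandry for some months. Wild mouse 1 was male, and wild mice 2 and 3 were female. The groups therefore differed in genetic background, origin, housing and time of collection, and in part in sex, and these cannot be told apart here. The liver was flash-frozen and not fixed, and each mouse gave 1 stranded mRNA library from polyadenylated RNA.

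Mitochondria carry a small circular genome, which is transcribed from both strands into long precursor RNAs that span many genes. The transfer RNAs lie between the coding regions, and cutting at the transfer RNAs releases most of the messenger and ribosomal RNAs. Most of the mitochondrial messenger RNAs then receive a poly(A) tail, and the proteins they encode join many nuclear-encoded subunits in the respiratory chain, which is abundant in hepatocytes.

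The genes lie close together, and some of them share bases, which bears on how a read can be assigned. Positions are on the mitochondrial chromosome of GRCm38 and sequences are from GENCODE. ND4L is the shortest of the members, with 297 bases, and its last 7 bases are the first 7 of ND4. ATP6 shares its first 43 bases with the end of ATP8. ND5 and ND6 lie on opposite strands, and ND6 is the only member read from the minus strand. The sequences below show these shared stretches in capitals, with ND4L at MT:9877-10173, the start of ND4 at MT:10167-10196 and the start of ATP6 at MT:7927-7986, all on the plus strand. The end of ND5 is at MT:13536-13565 on the plus strand, and the end of ND6 at MT:13552-13581 on the minus strand, where the 14 capitals of each are the reverse complement of the other.
ND4L: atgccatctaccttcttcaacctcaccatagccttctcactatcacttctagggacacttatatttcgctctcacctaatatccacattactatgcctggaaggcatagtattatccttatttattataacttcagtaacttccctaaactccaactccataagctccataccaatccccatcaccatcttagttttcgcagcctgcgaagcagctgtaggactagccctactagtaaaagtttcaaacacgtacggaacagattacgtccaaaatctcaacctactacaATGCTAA
ND4 start: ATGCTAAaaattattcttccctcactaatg
ATP6 start: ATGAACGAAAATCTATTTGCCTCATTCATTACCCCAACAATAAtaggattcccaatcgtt
ND5 end: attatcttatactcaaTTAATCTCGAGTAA
ND6 end: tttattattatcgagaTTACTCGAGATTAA

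The values used were FPKM (fragments per kilobase of transcript, scaled to the size of the library) and zFPKM (log2 FPKM set to 0 at the peak of each mouse's distribution of expressed genes and counted in SDs of that peak). That peak lay at a log2 FPKM of 0.491 (laboratory mouse 1) to 2.51 (wild mouse 1). Its SD ran from 2.51 (laboratory mouse 3) to 3.12 (wild mouse 2), so the same FPKM gives a different zFPKM in different mice. The most abundant transcripts can exceed a limit of the FPKM software and then have no estimate. This failure is marked for 5 of the mice. For laboratory mouse 1 it is not marked, and 7 zeros on the mitochondrial genome were taken as missing there. An estimate was given in all 6 mice for 5 members, ND1, ND2, ND3, ND5 and ND6. COX2 lacked it in laboratory mouse 3. ND4, ND4L and CYTB had an estimate in laboratory mouse 2 alone among the laboratory mice, and ATP6 had one in none of them. All 10 members had estimates in all 3 wild mice. The comparison by test covered the 6 members with at least 2 estimates per group, and the other 4 are given as values.

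The files give no read counts. Cufflinks' bounds on the FPKM of entries that overlap no neighbour narrow with the number of fragments, and over 3 to 5 such entries per mouse they fitted a depth of about 21200000 fragments for laboratory mouse 2 and of about 19600000 fragments for laboratory mouse 3. The fitted depth was about 24300000, 29000000 and 24900000 fragments for wild mice 1, 2 and 3, and no bounds are given for laboratory mouse 1. No entry was more than 1.97% off the fitted line. By the same bounds CYTB rested on about 961142 fragments in laboratory mouse 2 and on 129661 to 222161 in the wild mice, and ND3, with the fewest among these members, on 7340 in wild mouse 3. For these entries the bounds were 0.204% to 2.33% of the FPKM, less than the spread between mice. The standard errors below are those of the limma fit, which combines the spread between mice with a trend over all genes.

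Every member with an estimate in both groups was higher in the laboratory mice. ND1, a core subunit of the membrane arm of complex I, had FPKM of 46136, 32405 and 48802 in laboratory mice 1, 2 and 3. The wild mice, in the same order, had 7533, 6388 and 5939. The groups did not overlap, with means of 42448 ± 8798 (SD, n = 3) and 6620 ± 822 (SD, n = 3), a ratio of 6.41. The difference in log2(FPKM + 1) was 2.67 (SE 0.37, limma adjusted p = 0.00152).

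ND2, another membrane subunit of complex I, had FPKM of 55263, 38658 and 55576 in the laboratory mice. In the wild mice it had 5193, 4585 and 3586. The lowest laboratory value was above every wild value, and the means of 49832 ± 9678 and 4454 ± 811 (SD, n = 3 each) stood in a ratio of 11.2. On the log2(FPKM + 1) scale the laboratory mice were higher by 3.48 (SE 0.37, limma adjusted p = 0.000548).

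ND3, a small membrane subunit of complex I, had FPKM of 48647, 37863 and 46500 in the laboratory mice. Its wild values of 5310, 3530 and 2103 spread more widely than those of any other member with estimates in all mice, with an SD of 1607 around a mean of 3647. The groups were still apart, and the ratio of means was 12.2, the largest among the 6 tested members. The difference in log2(FPKM + 1) was 3.69 (SE 0.43, limma adjusted p = 0.000788).

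ND5 and ND6 were the lowest members in both groups. ND5, a large subunit of the proton-pumping arm of complex I, had FPKM of 12879, 11760 and 18976 in the laboratory mice against 1131, 1251 and 1458 in the wild mice. ND6, encoded on the opposite strand, had 20579, 17018 and 27411 in the laboratory mice against 1927, 1794 and 2154 in the wild mice. The ratios of means were 11.4 for ND5 and 11.1 for ND6, with no overlap for either. The differences in log2(FPKM + 1) were 3.48 (SE 0.28, limma adjusted p = 0.000243) for ND5 and 3.44 (SE 0.29, limma adjusted p = 0.000287) for ND6. Both strands are transcribed into long precursors. Reads over ND6, and not only those over the shared end, can therefore be told from RNA of the other strand only by strand. The libraries were stranded, but the strand setting of the FPKM software is not given in the sources used here.

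COX2, a catalytic subunit of cytochrome c oxidase, had FPKM of 97117 and 74757 in laboratory mice 1 and 2, with no estimate in laboratory mouse 3. It was the highest gene with an estimate in both of these mice. In the wild mice its FPKM was 16353, 14432 and 14093, all below both laboratory values. The ratio of means was 5.74, and the difference in log2(FPKM + 1) was 2.51 (SE 0.51, limma adjusted p = 0.0104, n = 2 against 3). With quantile normalization of zFPKM the difference fell from 0.96 to 0.23 and the call was lost (adjusted p = 0.259). The missing value failed for abundance, so the laboratory mean rests on the mice in which the estimate could be made.

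ND4, ND4L and CYTB could be compared for laboratory mouse 2 only, with no test. ND4, which is translated from the same messenger RNA as ND4L, had FPKM of 31034 in that mouse against 4445, 4976 and 3850 in the wild mice, 7.02 times the wild mean. ND4L had 54975 against 6348, 6032 and 5589, 9.18 times the wild mean. CYTB, the mitochondrial subunit of complex III, had 48431 against 7508, 8192 and 5545, 6.84 times the wild mean. Laboratory mouse 2 was above every wild mouse for all 3 genes, and it had the lowest FPKM of the laboratory mice for ND1, ND2, ND3, ND5 and ND6. ATP6, the proton-channel subunit of ATP synthase, was measured in the wild mice only, with FPKM of 21832, 14558 and 13850.

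**Figure D1:**
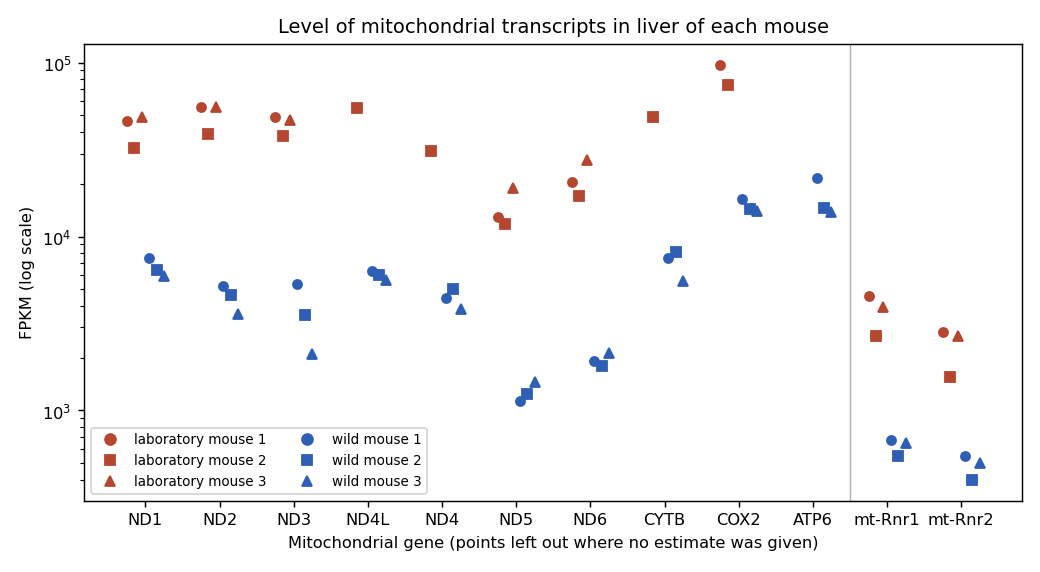
FPKM on a log axis for the 10 members and, right of the line, the mitochondrial ribosomal RNAs, with 1 point per mouse (red, laboratory; blue, wild; circle, square and triangle for mice 1, 2 and 3) and no point where no estimate was given. For every gene with points of both colours, each red point lies above each blue point.

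All 6 tested members had no overlap between groups, with the laboratory mice above, as had 14.2% of the 18627 genes tested. On the zFPKM scale all 6 were called higher at an adjusted p under 0.05 by limma with a mean-variance trend, against 14.5% of genes called in either direction, 7.19% called higher and 7.26% called lower. Their median difference was 1.48 against 0.0052 over all genes. On the log2(FPKM + 1) scale all 6 were again called higher, against 7.45% of genes, with a median difference of 3.46 against -0.19. The differences in zFPKM were 1.56 for ND3, 1.49 for ND2, 1.49 for ND5, 1.48 for ND6, 1.21 for ND1 and 0.96 for COX2. The order of the members by difference was therefore much the same on both scales, with COX2 and ND1 smallest.

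The adjusted p-values of the zFPKM fit were between 1.0e-82 and 2.4e-27 for the 6 members and should not be read at face value. The fit gave standard errors of 0.077 to 0.084, which it took from the trend over all genes, whereas the mice's own spread gave 0.11 to 0.23. Without the trend, the adjusted p ran from 0.0150 to 0.0658 and COX2 was no longer called. With each mouse's median zFPKM set at 0, the differences were still 0.83 to 1.59, but the trend gave standard errors of 0.64 to 1.74 and none of the 6 was called (adjusted p 0.108 to 0.749, with 1 of the 6 at an unadjusted p under 0.05). With quantile normalization ND1 fell from 1.21 to 0.37 (adjusted p = 0.0425) and the other 4 members besides COX2 were at 0.82 (ND2) or higher, all called. An exact permutation test of 3 mice against 3 cannot give a p below 0.1.

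The members held a larger part of the measured expression in the laboratory mice than in the wild mice. Summed over ND1, ND2, ND3, ND5 and ND6, the FPKM was 183504, 137704 and 197264 in the laboratory mice against 21094, 17548 and 15239 in the wild mice. These sums were 28.4%, 21.9% and 31.5% of the summed FPKM of all genes with estimates in 6 mice for the laboratory mice, against 3.80%, 3.08% and 2.81% for the wild mice. The sums did not overlap, and the group means of 172824 ± 31183 and 17960 ± 2949 (SD, n = 3 each) stood in a ratio of 9.62. FPKM is scaled to the fragments of the library, so the level of other genes is given beside these sums. The median FPKM of the tested genes was 0.831, 1.01 and 1.18 in the laboratory mice against 1.56, 1.73 and 1.94 in the wild mice, and divided by these medians the sums stood in a ratio of 16.6.

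**Figure D2:**
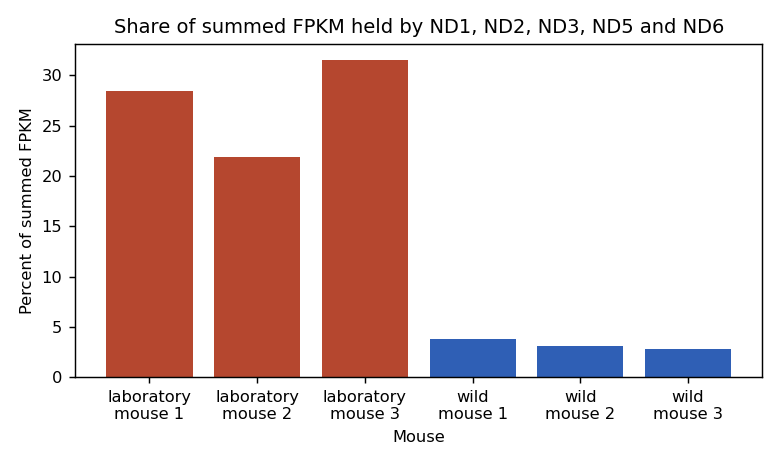
Percent of the summed FPKM of all genes with estimates in 6 mice that was held by ND1, ND2, ND3, ND5 and ND6, as 1 bar per mouse from 0. The laboratory mice (red) lie between 21.9% and 31.5%, and the wild mice (blue) between 2.81% and 3.80%.

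FPKM weighs short transcripts heavily, so the share was also estimated in fragments, from FPKM, the fitted depth and a fitted transcript length less about 210 bases. The 9 members other than ATP6 took about 20.7% of all fragments in laboratory mouse 2, against 3.35%, 3.24% and 2.76% in wild mice 1, 2 and 3. The 5 members of the sums above took 8.57% in laboratory mouse 2 and 12.8% in laboratory mouse 3, against 1.31%, 1.16% and 1.07% in the wild mice. The shares were again far apart. ND4L kept only about 87 bases after this subtraction and ND3 about 138, so their levels per length depend on the subtraction more than those of the longer genes. In bulk liver, more mitochondrial RNA per cell and a different mixture of cells cannot be told apart.

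The order of the levels was alike in the groups at its ends and differed in between. In the wild mice the mean FPKM fell from ATP6 (16747) and COX2 (14959) through CYTB (7082), ND1 (6620) and ND4L (5990) to ND2 (4454), ND4 (4424) and ND3 (3647), and then to ND6 (1958) and ND5 (1280). ATP6 and COX2 overlapped between mice, as did CYTB with ND1, ND1 with ND4L, ND2 with ND4, ND4 with ND3, and ND3 with ND6, whereas COX2 lay above CYTB, ND4L above ND2 and ND6 above ND5 in every mouse. In laboratory mouse 2, with 9 members measured, COX2 was highest of these and ND6 and ND5 lowest, but ND4L, CYTB, ND2 and ND3 stood above ND1. COX1 (FPKM 19896 to 21134), ATP8 (19297 to 26520) and COX3 (11349 to 15920) were also among the highest genes of the wild mice and had no estimate in any laboratory mouse.

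Levels within a mouse do not depend on how the library was scaled, so ratios between members were compared as a description. ND2 was 1.20, 1.19 and 1.14 times ND1 in the laboratory mice against 0.689, 0.718 and 0.604 times ND1 in the wild mice. ND3 was 1.05, 1.17 and 0.953 times ND1 in the laboratory mice against 0.705, 0.553 and 0.354 times in the wild mice. For both genes the groups did not overlap. ND5 was 0.279, 0.363 and 0.389 times ND1 in the laboratory mice against 0.150, 0.196 and 0.245 times in the wild mice, again apart. ND6 followed ND5, with 0.446 to 0.562 times ND1 against 0.256 to 0.363 times.

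Other pairs differed less. COX2 was 2.11 and 2.31 times ND1 in laboratory mice 1 and 2, overlapping the wild mice (2.17, 2.26 and 2.37). ND6 was 1.60, 1.45 and 1.44 times ND5 in the laboratory mice against 1.70, 1.43 and 1.48 times in the wild mice, with full overlap. These genes are read from opposite strands, and how reads were assigned by strand is not given in the sources used here. ND4L was 1.77 times ND4 in laboratory mouse 2 against 1.43, 1.21 and 1.45 times in the wild mice. With ND1 as the common denominator, COX2 and ND1 thus shared the smaller rise, and ND2, ND3, ND5 and ND6 the larger one. The ratios to ND1 are not independent of each other. Levels were also taken relative to the mean log2 FPKM of the 5 members with estimates in all mice. On that measure ND1 (-0.69) and COX2 (-0.71, n = 2 against 3) were lower in the laboratory mice, without overlap. ND2 (0.13), ND3 (0.34), ND5 (0.13) and ND6 (0.09) overlapped between groups.

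**Figure D3:**
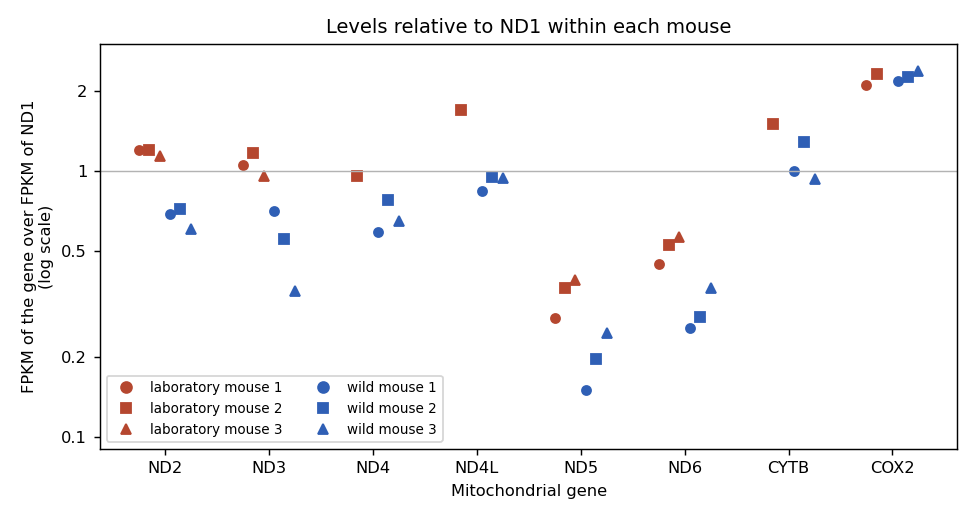
FPKM of 8 members over the FPKM of ND1 in the same mouse, on a log axis with a line at 1, with 1 point per mouse (red, laboratory; blue, wild). Red and blue points are apart for ND2, ND3, ND5 and ND6 and mixed for COX2, and laboratory mouse 2 is the only laboratory point for ND4, ND4L and CYTB.

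The ribosomal RNAs of the same genome moved the same way at a much lower level. The small subunit RNA mt-Rnr1 had FPKM of 4546, 2689 and 3944 in the laboratory mice against 673, 549 and 649 in the wild mice. The large subunit RNA mt-Rnr2 had 2807, 1556 and 2695 in the laboratory mice against 545, 398 and 498 in the wild mice. Neither overlapped between groups, and the ratios of means were 5.97 and 4.90, with differences in log2(FPKM + 1) of 2.55 (SE 0.25, limma adjusted p = 0.000411) and 2.25 (SE 0.28, limma adjusted p = 0.000929). The libraries were made from polyadenylated RNA, so the values for these RNAs, whose tails are short or absent, are not their abundance in the tissue.

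Part of the mitochondrial genome also stands in the nuclear genome, which matters for a gene whose reads could be placed there. Among GENCODE transcripts, 5 of the 10 members had a nuclear copy of at least 99% identity, all on the minus strand within 4663 bases of chromosome 1 (chr1:24611535-24616197, GRCm38). COX2 matched over 681 of 684 bases, ATP6 over 678 of 681, ND4L over 294 of 297, ND4 over 876 of 1378 and ND3 over 345 of 348. ND3 and its copy Gm28438 differed at a single base, T3C counted from the first base of ND3, which is the capital in the stretches printed here, from MT:9459-9490 on the plus strand and chr1:24613088-24613119 on the minus strand.
ND3: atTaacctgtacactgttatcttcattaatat
Gm28438: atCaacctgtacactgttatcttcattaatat

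Among the same transcripts ND1 had no nuclear copy at 80% identity or above. For ND2, ND5, ND6 and CYTB the longest copies found were 92.4% to 96.7% identical. Nuclear sequence outside annotated transcripts was not searched. The nuclear copies of ATP6 and ND4L have entries of their own in the files. Gm10925, the copy of ATP6, had FPKM of 14.8, 10.0 and 16.2 in the laboratory mice against 1.93, 0.147 and 0.341 in the wild mice. Gm10222, the copy of ND4L, had 0, 1.88 and 2.55 in the laboratory mice against 0, 0.690 and 0 in the wild mice. In the wild mice the copies stood at no more than 0.0114% of the FPKM of the mitochondrial gene. How reads that match both places were assigned is not given in the sources used here. The tested members with a copy of at least 99% identity, COX2 and ND3, had differences in log2(FPKM + 1) of 2.51 and 3.69. Those without one were ND1 (2.67), ND2 (3.48), ND5 (3.48) and ND6 (3.44). The part of nuclear copies in the members' difference was not tested.

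Nuclear genes for the same complexes differed in both directions, and none of those tested rose as much as the members. Falls could be as large: the log2(FPKM + 1) difference of the ATP synthase subunit Atp5b was -3.10, larger in size than those of ND1 and COX2. Of 68 tested nuclear subunits of complexes I, III and IV and ATP synthase, 30 were called higher in the laboratory mice and 8 lower on the zFPKM scale, where 7.19% of all tested genes were higher and 7.26% lower. Their median zFPKM difference was 0.21, against 0.0052 over all genes. On the log2(FPKM + 1) scale 24 were higher and 20 lower, where 7.45% of all genes were higher and 36.9% lower, and their median was -0.10 against -0.19. With each mouse's median of log2(FPKM + 1) at 0, 31 were higher and 10 lower, where 42.4% of all genes were higher and 22.4% lower, and their median was 0.35 against 0.26. The nuclear subunits' median thus lay above that of all genes on each of these scales and below 0 on the log2(FPKM + 1) scale, and all 6 tested members were called higher on each of them.

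Complex I, which holds most of the members' protein partners, had 18 of 35 nuclear subunits higher and 3 lower on the zFPKM scale, where 7.19% and 7.26% of all genes were so called. Ndufa3, an accessory subunit, had the highest level of the list and its FPKM was 1136, 931 and 889 in the laboratory mice against 397, 386 and 374 in the wild mice, a zFPKM difference of 0.73 (SE 0.10). Ndufb1-ps rose most, by 0.88 (SE 0.11). Ndufv1, a core subunit that binds NADH, fell most, with 26.4, 28.0 and 24.0 against 149, 113 and 112, a difference of -0.53 (SE 0.13, limma adjusted p = 0.00114). The groups of these genes did not overlap.

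On the zFPKM scale, 7.19% of all tested genes were higher and 7.26% lower. In complex III, 3 of 8 nuclear subunits were higher and 1 was lower. Uqcrq rose most (zFPKM difference 0.58, SE 0.11), the core subunit Uqcrc2 fell by 0.59 (SE 0.13), and Uqcr11, the highest of the list, rose by 0.49 (SE 0.096). In complex IV, 5 of 11 were higher and 1 was lower, with Cox7c at 0.77 (SE 0.096), Cox6b1, the highest, at 0.57 (SE 0.095) and Cox5a at -0.48 (SE 0.12). In ATP synthase, 4 of 14 were higher and 3 lower, with Atp5j at 0.69 (SE 0.10), Atp5h, the highest, at 0.49 (SE 0.099) and the catalytic subunit Atp5b at -0.83 (SE 0.11). The medians of complex III, complex IV and ATP synthase were above 0 on the zFPKM scale and below 0 on the log2(FPKM + 1) scale.

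Complex II is encoded by nuclear genes alone. None of its 4 subunits was called higher, and Sdha and Sdhd fell on the zFPKM scale, where 7.26% of all genes were lower. On the log2(FPKM + 1) scale 3 of the 4 were lower, against 36.9% of all genes. Sdha, the flavoprotein subunit, had FPKM of 29.0, 32.7 and 26.7 in the laboratory mice against 206, 172 and 196 in the wild mice, a zFPKM difference of -0.69 (SE 0.13, limma adjusted p = 2.9e-06). Sdhb, the highest subunit, had 213, 245 and 206 against 266, 256 and 272, with a difference of 0.17 that did not pass the test (SE 0.11, adjusted p = 0.358).

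Shorter nuclear subunits tended to be higher in the laboratory mice. The calls counted here are those on the zFPKM scale, where 7.19% of all tested genes were higher and 7.26% lower. Of the 71 nuclear subunits of the 5 complexes with a GENCODE length, the 36 with a longest transcript of up to 1005 bases held 19 higher and 1 lower, and the 35 longer ones held 11 higher and 8 lower. Across these genes Spearman's rho between length and the difference in log2(FPKM + 1) was -0.24, and across 16500 tested nuclear genes it was -0.16. Genes are not independent replicates, and this split was chosen after the values were seen. Among the 6 tested members the ratios of means were 11.4 for ND5 (1824 bases), 11.2 for ND2 (1038 bases) and 6.41 for ND1 (957 bases). They were 5.74 for COX2 (684 bases), 11.1 for ND6 (519 bases) and 12.2 for ND3 (348 bases). The part of length in the members' difference was not tested.

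**Figure D4:**
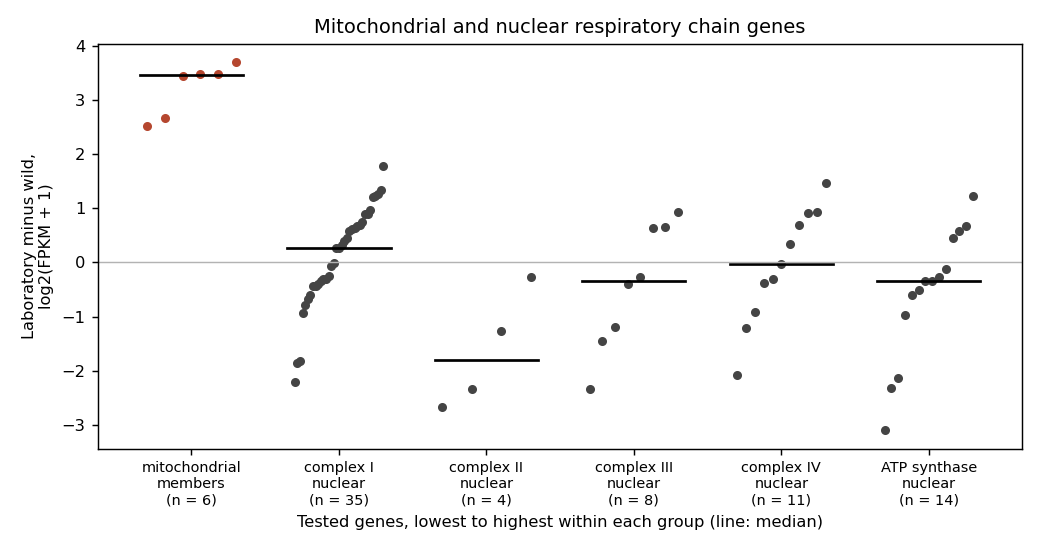
Difference in log2(FPKM + 1), laboratory minus wild, of the 6 tested members (red) and of the tested nuclear subunits of each complex (grey), 1 point per gene with a line at the group median. The lowest member, at 2.51, lies above the highest nuclear subunit, Ndufb1-ps at 1.79.

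Factors that copy and transcribe the mitochondrial genome showed little difference on the zFPKM scale. Of 16 tested, 1 was called higher and none lower, against 7.19% and 7.26% of all genes. That gene was Ssbp1, which binds single-stranded mitochondrial DNA, with FPKM of 21.7, 22.9 and 23.1 in the laboratory mice against 16.0, 11.2 and 12.5 in the wild mice (zFPKM difference 0.52, SE 0.16, limma adjusted p = 0.0161). Polrmt, the mitochondrial RNA polymerase, had 4.05, 4.50 and 5.73 against 5.99, 4.21 and 5.64, overlapping (0.19, SE 0.22, adjusted p = 0.639). Tfam, which packages the genome and starts transcription, had 3.30, 4.34 and 3.95 against 11.0, 11.1 and 9.83, and did not pass on the zFPKM scale (-0.27, SE 0.20, adjusted p = 0.449) but was lower on the log2(FPKM + 1) scale (-1.26, SE 0.14, adjusted p = 0.00070). On that scale 1 of the 16 was higher and 9 were lower, against 7.45% and 36.9% of all genes.

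Among 19 factors of mitochondrial RNA processing and decay, 1 was called higher and none lower on the zFPKM scale. The shares of all tested genes there were 7.19% and 7.26%. On the log2(FPKM + 1) scale none was higher and 12 were lower, where 7.45% and 36.9% of all genes were so called. The gene called higher was Slirp, which with Lrpprc stabilizes mitochondrial messenger RNAs, with FPKM of 126, 137 and 110 in the laboratory mice against 111, 97.4 and 99.8 in the wild mice. Its groups overlapped in FPKM but not in zFPKM, which is scaled within each mouse. The zFPKM difference was 0.34 (SE 0.12, limma adjusted p = 0.0336), and the call was lost on the log2(FPKM + 1) scale (adjusted p = 0.137). Lrpprc had 10.2, 10.4 and 8.45 against 36.7, 22.6 and 23.0, a log2(FPKM + 1) difference of -1.38 (SE 0.21, adjusted p = 0.00216) and a zFPKM difference of -0.27 (adjusted p = 0.304). Mtpap, the mitochondrial poly(A) polymerase, had 1.54, 1.83 and 1.89 against 4.14, 3.80 and 4.19, with a zFPKM difference of -0.18 (adjusted p = 0.724). Hsd17b10, a subunit of the nuclease that frees transfer RNAs, was the highest of the list and had a zFPKM difference of 0.18 (adjusted p = 0.322).

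None of the 8 biogenesis regulators was called by limma on the zFPKM scale (2 at an unadjusted p under 0.05), where 14.5% of all genes were called. On the log2(FPKM + 1) scale 4 were lower, against 36.9% of all genes. Esrra, a nuclear receptor that drives respiratory genes, was the highest of these regulators. Its FPKM was 15.6, 15.9 and 19.4 in the laboratory mice against 15.7, 10.6 and 12.2 in the wild mice. Of 14 genes for matrix and outer membrane proteins that mark mitochondrial content, 1 was higher and 3 were lower on the zFPKM scale. The shares of all tested genes there were 7.19% and 7.26%. The mitochondrial chaperone Hspa9 had FPKM of 21.7, 24.7 and 24.7 in the laboratory mice against 279, 239 and 224 in the wild mice, a zFPKM difference of -0.92 (SE 0.13). The co-chaperone Hspe1 differed by -0.33 (SE 0.12, adjusted p = 0.0350), and the matrix protease Clpp by 0.44 (SE 0.13, adjusted p = 0.0127). On the log2(FPKM + 1) scale 1 of the 14 was higher and 12 were lower, against 7.45% and 36.9% of all genes.

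Markers of other cells moved in part with the groups. Over all tested genes, 7.19% were higher and 7.26% lower on the zFPKM scale. The shares were 7.45% and 36.9% on the log2(FPKM + 1) scale. All 6 tested erythrocyte genes were higher in the laboratory mice on the zFPKM scale and 2 of the 6 on the log2(FPKM + 1) scale, and their summed FPKM was 1340 to 5135 there and 724 to 1581 in the wild mice. The ranges overlapped, as did those of Hba-a1, the highest of them, which was 548 in laboratory mouse 3 and 608 in wild mouse 2. Of 8 Kupffer cell genes, 1 was lower, Lyz2, with 5.30, 7.58 and 2.89 against 12.0, 51.1 and 123, and the summed level was 37.0 to 47.1 against 24.9 to 244. The defining Kupffer gene Clec4f overlapped (22.8, 16.2 and 22.2 against 6.02, 18.8 and 28.9).

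Of the 6 sinusoidal endothelial genes none was called by limma (2 at an unadjusted p under 0.05), and Clec4g, the highest, overlapped. Of 6 stellate cell genes 2 were higher on the zFPKM scale, and 1 higher and 3 lower on the log2(FPKM + 1) scale, with Col1a1 at 0.83 in zFPKM (SE 0.28) and Dcn, the highest, at -0.31 (adjusted p = 0.118). Of 6 cholangiocyte genes 1 was higher, Spp1 at 0.75 (SE 0.15). Cd79a, the highest of 8 lymphocyte genes, did not pass (adjusted p = 0.0614). None of 3 tested acinar pancreas genes was called by limma (0 at an unadjusted p under 0.05), with Cela1 the highest. Of the 11 hepatocyte genes tested, 4 were higher and 5 lower on the zFPKM scale, against 7.19% and 7.26% of all genes. The apolipoprotein genes Apoa1 and Apoa2 were higher by 0.68 and 0.57 in zFPKM, and the fibrinogen gene Fga was lower by -1.04. Apoa2, the highest hepatocyte gene, had FPKM of 34445, 30115 and 27214 in the laboratory mice against 22362, 13702 and 15099 in the wild mice. On the log2(FPKM + 1) scale 1 of the 11 was higher and 6 were lower, against 7.45% and 36.9% of all genes. The part of these cells in the members' difference was not tested.

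RNAs without a poly(A) tail were looked at because the libraries selected polyadenylated RNA. Of 17 such genes sought, 6 were listed once for every mouse, and only 2 of these passed the filter. Rpph1, the RNA of nuclear ribonuclease P, had FPKM of 15.5, 8.94 and 13.1 in the laboratory mice against 2.73, 3.13 and 3.96 in the wild mice, and was called higher (zFPKM difference 0.91, SE 0.20). Rmrp did not pass the test, and the other 4 were at 0 in every mouse. The part of RNA selection in the members' difference was not tested.

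The genes outside the mitochondrial genome whose zFPKM most resembled the mean of the 5 complete members over the 6 mice were Apoc3 (Pearson r = 0.993), Gm39334 (0.992), Apoa1 (0.990), LOC105246046 (0.990) and Rpl38 (0.989), out of 18608 genes ranked. Apoc3 encodes an apolipoprotein and Rpl38 a ribosomal protein. The mice fall into separate groups, so such an r mostly reflects the difference between groups, and no p is given. Apoc3 had FPKM of 14411, 11364 and 13185 in the laboratory mice against 5392, 6873 and 5199 in the wild mice. Rpl38 had 1573, 1408 and 1600 against 670, 703 and 635, and Gm39334 and LOC105246046 were at 0 in all wild mice and below 3 in the laboratory mice.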

How the data were processed

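Liver RNA-Seq of 3 laboratory and 3 wild mice was used, with groups taken from the sample titles. The authors aligned reads to a masked genome (GRCm38.p6 per the labels' processing notes) with kalign and deposited FPKM made with the Tuxedo pipeline. The zFPKM, a score that the authors also deposited, was derived from log2 FPKM within each mouse. Read counts were not analysed here, so the edgeR test that the methods name for counts was not run.

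From the deposited values, genes with zFPKM above -3 in at least 3 mice and at least 2 estimates per group were tested (18627 genes), with lower values set to -3. A marked failed estimate was treated as missing (24 gene names), as were 14 zeros in laboratory mouse 1. The test was limma 3.58.1 under R 4.3.3 (linear fit, empirical Bayes with trend, adjustment over all tested genes after Benjamini and Hochberg, threshold 0.05), on zFPKM and on log2(FPKM + 1), where fold changes of low genes are understated. P-values rest on the spread between these mice after limma combined it with the trend over all genes, so they do not measure the mice's own spread alone. Nuclear copies were sought with BLAST 2.17.0 (at least 80% identity) among GENCODE transcripts on GRCm38. Starts in the files are 0-based and were raised by 1. Tables were made in Python 3.11.15 with numpy 2.4.6 and pandas 2.3.3. The fit was tested on simulated data.

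The genes named were the 10 members, the other mitochondrial entries, the highest gene and the largest called rise and fall of each list, Polrmt, Tfam, Lrpprc, Slirp and Mtpap, and the 5 genes most like the members in pattern. Some genes that this rule selects are not reported here. Sdhd, Rmrp and the nuclear copies were named after their values were seen. The members and lists were chosen with earlier results of these data known. Alternatives were other scales, floors, filters and normalizations, no trend, sex as a covariate, and each mouse left out in turn.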

Additional observations from a re-analysis of the deposited data

How the results depend on the processing

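Every alternative kept the 6 tested members higher in the laboratory mice, and of 113 member values under alternatives 8 lost their call, all with quantile normalization, without the trend or with each mouse's median zFPKM at 0. With that last setting 0 of 6 members were called. The members' median difference was 1.48, and it was 3.46 with log2(FPKM + 1) or log2(FPKM + 0.1), 3.91 with log2(FPKM + 1) centred on each mouse's median, 0.867 with quantile normalization, and 1.21 with zeros of laboratory mouse 1 kept, where ND4 (-2.72), ND4L (-2.74) and CYTB (-2.84) came out lower because a 0 then enters their laboratory mean. The sum of 5 members had a ratio of 9.62, or 16.6 over each mouse's median FPKM. The count of genes called, 2692, depended strongly on the setting. It was 8254 with log2(FPKM + 1), 8599 with log2(FPKM + 0.1), 12059 with log2(FPKM + 1) centred, 7292 with quantile normalization, 5285 with zFPKM centred, 1419 with no filter, 796 without trend, 1405 with sex as a covariate, 5698 without laboratory mouse 3 and wild mouse 1, and 1418 to 2567 with each mouse left out in turn. Calls were higher in laboratory mice for 49.8% of genes called, and for 16.8%, 17.8%, 65.5% and 82.1% with log2(FPKM + 1), log2(FPKM + 0.1), log2(FPKM + 1) centred and sex as a covariate, and for 37.7% to 64.2% with a mouse left out. No paired analysis was possible because the replicate numbers do not pair the mice.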
